A study of Mus musculus with 48 samples.

Results

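Forebrain H3K27ac at embryonic day E11.5 was set against forebrain H3K27ac at E14.5, from 2 peak lists of the earlier stage and 1 of the later stage. H3K27ac is acetylation of lysine 27 of histone H3, measured here by chromatin immunoprecipitation and sequencing. All 3 libraries came from forebrain of CD-1 mice, an outbred stock, with no treatment or altered gene given in the labels, and each was pooled tissue from several embryos. The series as a whole covered forebrain, heart and liver at 7 stages: E11.5, E14.5, E17.5, P0, P7, P21 and P56, with P for postnatal day. These are the stages of the sample labels, and the file headers write P0 and P21 as P1 and P20. There were 24 H3K27ac libraries among 48, the rest being input DNA taken before immunoprecipitation. Every H3K27ac list named below came from the same stock, with pooled tissue at each stage before P56.

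Peaks of the 3 lists that overlapped by at least 1 bp were merged into 28851 elements. Of these, 338 had a peak in both E11.5 lists and none at E14.5 (called E11.5 only), 12419 had a peak at E14.5 and in neither E11.5 list (E14.5 only), and 10431 had a peak in all 3 (shared). These 3 classes together held 23188 elements. Merging over all 24 H3K27ac lists gave 86181 elements, 26752 of them marked in 1 or more of the 3 forebrain lists.

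H3K27ac is laid down by the acetyltransferases p300 and CBP and marks promoters and enhancers that are in use. Enhancers in particular change their mark with cell type and time. At E11.5 the mouse forebrain wall consists largely of dividing progenitors, while by E14.5 neurons are being produced in number in the cortex and in the ganglionic eminences. Bulk tissue mixes these cells, so a peak that appears between the stages can come from more cells of a type or from more mark per cell, and the lists cannot tell these apart.

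The E14.5 library was the deepest of the 3 and had the longest list. E11.5 replicate 1 held 18120244 uniquely mapped reads and 15823 peaks, E11.5 replicate 2 held 27139523 reads and 11871 peaks, and E14.5 held 33394166 reads and 27288 peaks. Of the 2 E11.5 replicates, the deeper one had the shorter list. Peaks covered 39.9 Mb, 28.3 Mb and 82.9 Mb of the genome in the same order, with median widths of 2181 bp, 2072 bp and 2482 bp. The authors' summary table gave 19811, 14461 and 31930 peaks, which is 3988, 2590 and 4642 more than the lists hold. Which peaks were left out of the lists is not known, so an element with no peak in a list may have had one before that step. All 3 libraries belong to 1 series of library names in the file headers. The labelled tissue could not be checked against marker genes, since no mm9 gene annotation was used here.

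In the full lists, marked regions present at E14.5 and absent at E11.5 far outnumbered the reverse. E11.5 only elements made up 1.17% of all elements, E14.5 only elements 43%, and shared elements 36.2%. The other elements had a peak in 1 E11.5 list and not the other: 960 in replicate 1 alone, 283 in replicate 2 alone, 3839 in replicate 1 and E14.5, and 581 in replicate 2 and E14.5. Elements on which the replicates disagreed were therefore many times more numerous than E11.5 only elements. Most E11.5 peaks had a counterpart at E14.5: 91.8% of replicate 1 peaks and 94.5% of replicate 2 peaks overlapped an E14.5 peak. In the other direction, 52.4% of E14.5 peaks overlapped a replicate 1 peak and 40.4% a replicate 2 peak. With 2 lists against 1, no split of the lists can give a p below 0.33, so the class counts carry no test. The E11.5 only count also rested on both replicates: it was 647 without replicate 1 and 1300 without replicate 2.

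List length sets these counts in part. When each list was held to its 11871 best ranked peaks, by the authors' rank of each peak, 15651 elements remained. E11.5 only elements then numbered 1447 (9.25%), E14.5 only elements 1907 (12.2%) and shared elements 8205 (52.4%). Lists of the same length leave similar numbers of peaks without a counterpart in each direction, so the near balance of the stage classes follows from the setting and is no measure of turnover. At these equal lengths 912 elements were in replicate 1 alone and 1424 in replicate 2 alone, so that the number set apart by a single replicate was of the same order as the number set apart by stage. The Jaccard index, the share of elements common to 2 lists among those in either, was 0.702 for the E11.5 replicates, 0.660 for replicate 1 and E14.5, and 0.596 for replicate 2 and E14.5. In the full lists these indices were 0.655, 0.4995 and 0.395. At both lengths the replicate pair had the highest index. At 11871 peaks a list its lead over the pair of replicate 1 and E14.5 was smaller than the gap between the 2 pairs across stages. In the full lists that lead was the larger. It was also the larger with the best 5000 peaks of each list, where the indices were 0.661, 0.572 and 0.540.

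**Figure D1:**
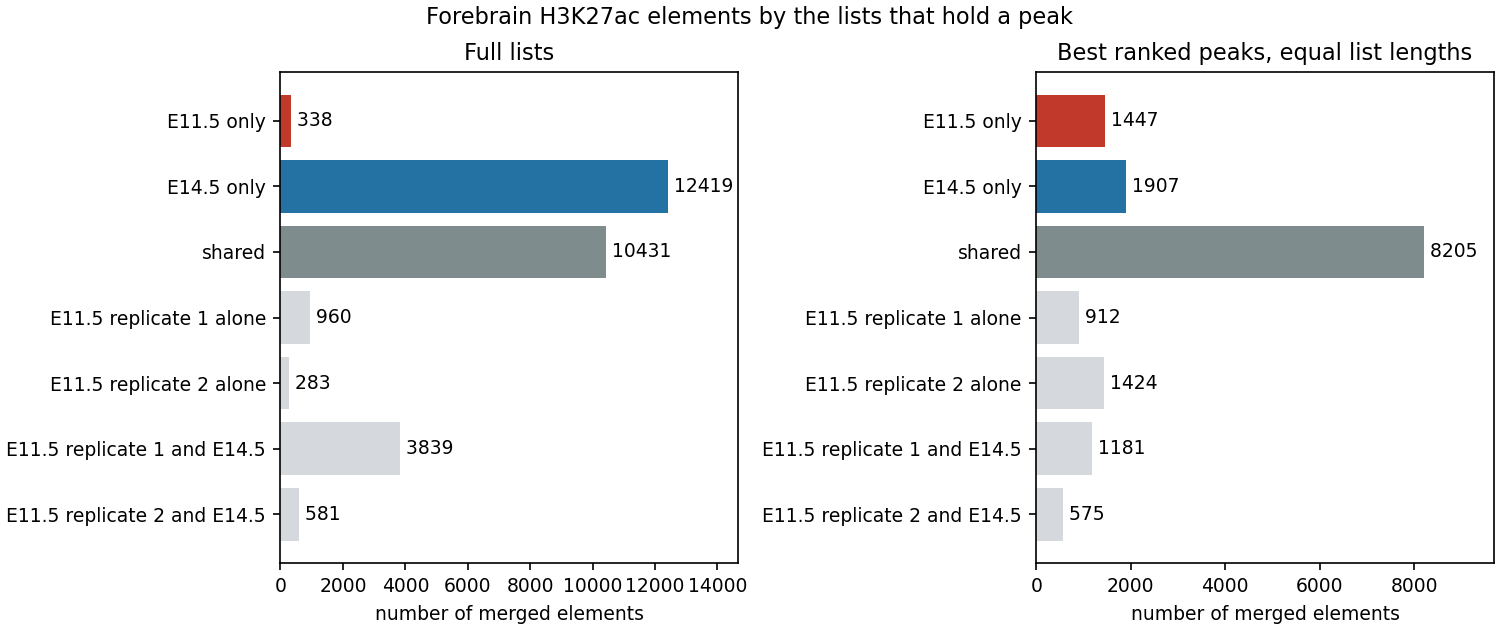
Number of merged elements (x axis) in each class (rows) for the full lists (left) and for the 11871 best ranked peaks of each list (right). Coloured bars are the 3 classes compared and grey bars are elements on which the E11.5 replicates differ. E11.5 only rises from 338 to 1447 elements and E14.5 only drops from 12419 to 1907 when the lists have the same length.

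Elements that passed both conditions, a place among the best 11871 peaks of one stage and no peak anywhere in the full lists of the other, were less evenly split. Of the 1447 elements that were E11.5 only at equal lengths, 1254 (86.7%) had an E14.5 peak further down the full list and 193 had none. Of the 1907 E14.5 only elements, 563 (29.5%) had a peak in the full list of E11.5 replicate 1 and 1344 (70.5%) had one in neither replicate. These 193 and 1344 elements, 1.23% and 8.59% of the 15651, are called unmatched below, which says that the other of the 2 stages lacked a peak and nothing of later stages. The full lists differ in length, and the longer E14.5 list gives an E11.5 peak more chances of a match than the reverse.

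Peaks without a counterpart sat low in their own lists. Each list was cut into 10 bins of equal size by rank. Of E14.5 peaks in the best ranked bin, 0.916% overlapped no peak of either E11.5 replicate, against 40.5% in the fifth bin and 89.8% in the last. The E14.5 list holds 27288 peaks against 15823 and 11871, so its last bins rank beyond the length of either E11.5 list. The same bin of lists of unlike length is therefore not directly comparable. How far list length sets the shares in the last bins was not tested. None of the best 100 E14.5 peaks lacked an E11.5 counterpart, 5 of the best 1000 did and 85 of the best 5000 did. The same held between replicates, where the share of replicate 1 peaks with no replicate 2 peak went from 0.948% in the first bin to 79.9% in the last. In the other direction, from the shorter list to the longer, it went from 0.421% to 30.0%. E11.5 peaks without an E14.5 peak went from 0.379% to 26.8% in replicate 1 and from 0.758% to 18.4% in replicate 2. Among the best 1000 peaks, 3 of replicate 1 and 9 of replicate 2 had no E14.5 peak. The median rank percentile, where 100 is the best peak, was 29.7 in replicate 1 and 21.4 in replicate 2 for E11.5 only elements and 26.9 at E14.5 for E14.5 only elements. Shared elements had medians of 65.5, 54.7 and 79.0 in replicate 1, replicate 2 and E14.5. Changes in presence between these stages were thus mostly among low ranked peaks, and so were differences between replicates.

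**Figure D2:**
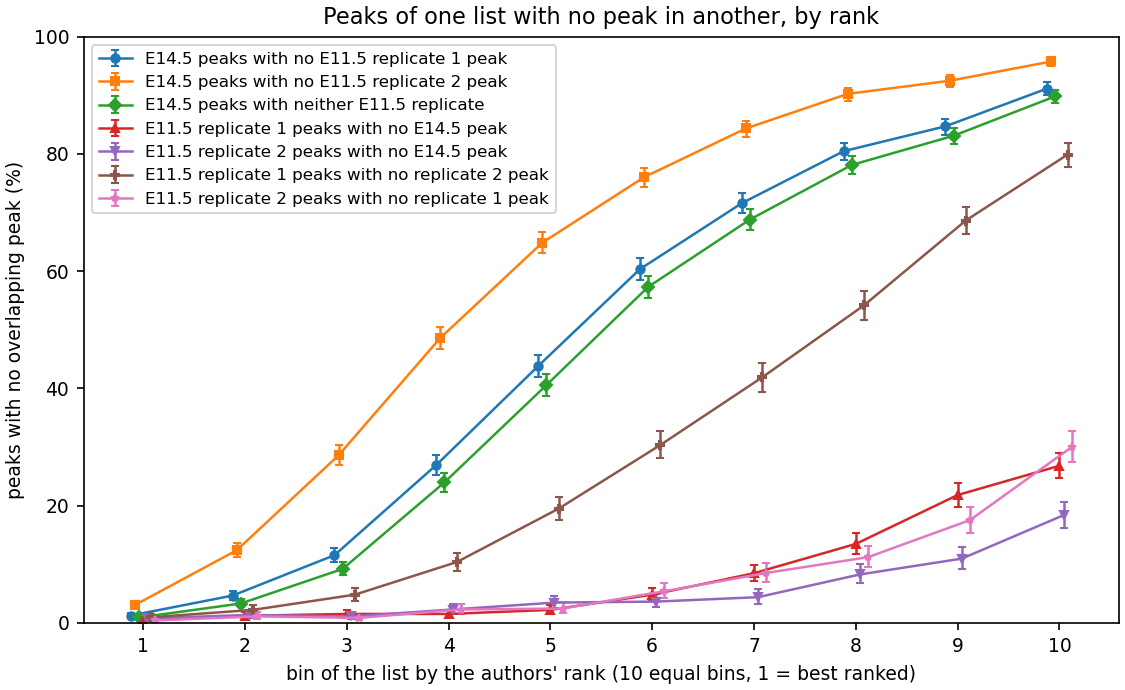
Percentage of peaks of one list that overlap no peak of another (y axis) by bin of the list, with 10 bins of equal size in the authors' rank (x axis, bin 1 is the best). Bars are exact 95% intervals for counting error only. Each line rises from near 0 in the first bin. In the last bin it reaches 89.8% for E14.5 peaks with neither E11.5 replicate and 18.4% for E11.5 replicate 2 peaks with no E14.5 peak. The lists differ in length, with 27288 peaks at E14.5 and 11871 in E11.5 replicate 2.

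The 10 best ranked E11.5 only elements had no E14.5 peak, yet all 10 had a peak in later forebrain lists, between 2 and 5 of the 6, and 8 of them had one at E17.5. The first by mean rank, chr8:73218747-73225752 (mm9, as are all positions), had rank 804 in replicate 1 and 802 in replicate 2. It had no peak at E14.5, E17.5, P7 or P21, but a peak at P0, in both P56 forebrain lists and in 14 of the 15 heart and liver lists. The second, chr13:21869630-21883465, spanned 13836 bp with ranks of 986 and 762 and had a peak in 4 later forebrain lists and 12 heart and liver lists. In all, 7 of the 10 had a peak in at least 10 heart and liver lists.

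Among these 10, a single element had no peak in any heart or liver list. It lies at chr9:106027044-106031892, ranked 1771 and 1000 in the E11.5 replicates, and was marked again in forebrain at E17.5, P0 and P7 and in no P21 or P56 list. Another, chr7:38958016-38962273 (ranks 1602 and 831), lies 2.17 kb from a peak of the matched input libraries. Of the E11.5 only elements as a whole, none overlapped an input peak. The third widest E11.5 only element, chr6:23194448-23205576 (11129 bp, ranks 4035 and 4932), had a peak in none of the other 21 lists. The widest, chr9:91252692-91266909 (14218 bp, ranks 3516 and 4137), was marked in forebrain at E17.5, P0 and P7 and in no heart or liver list. The best ranked members of the class were therefore not limited to E11.5 within the forebrain series.

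The 10 best ranked E14.5 only elements were also marked later in forebrain, 9 of them at E17.5 and 4 in all 6 later lists. The first, chr10:126495349-126502606, was rank 166 at E14.5 and had a peak at E17.5, P0, P7 and in P56 replicate 2, and in 7 heart and liver lists. The second, chr14:55667706-55676012 (8307 bp, rank 536), was marked in all 6 later forebrain lists and in no heart or liver list. Its presence at every forebrain stage from E14.5 on and in no other tissue set it apart from the other 9. The third, chr11:98174619-98204660, was 1 peak of 30042 bp at rank 628, marked in all 6 later forebrain lists and in 6 heart lists but in 1 liver list.

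Besides the second, 2 more of the 10 had no heart or liver peak. One, chr8:34856544-34859210 (rank 1095), was marked in forebrain at E17.5, P0, P7 and in P56 replicate 1. The other, chr2:166886927-166890891 (rank 1205), was marked at E17.5 and in no other list. The widest E14.5 only element was a single peak of 38641 bp, chr8:87287697-87326337, at rank 2348. It too was marked in all 6 later forebrain lists, and in 9 heart and liver lists, none of them an E11.5 list. Of the 10, 4 had a peak in at least 10 heart and liver lists, beside 7 of the 10 best E11.5 only elements. Over whole classes this share was 24.9% of E11.5 only, 14.6% of E14.5 only and 70.6% of shared elements, and it was 32.1% of both kinds of unmatched element. None of the 20 had a peak at heart P21, a list of 7376 peaks that stands apart from the others. The authors' summary table gave 23852 peaks for that library, 16476 more than its list holds. Only 6.81% of shared elements had a peak there, so absence from that list does not set these 20 apart.

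**Figure D3:**
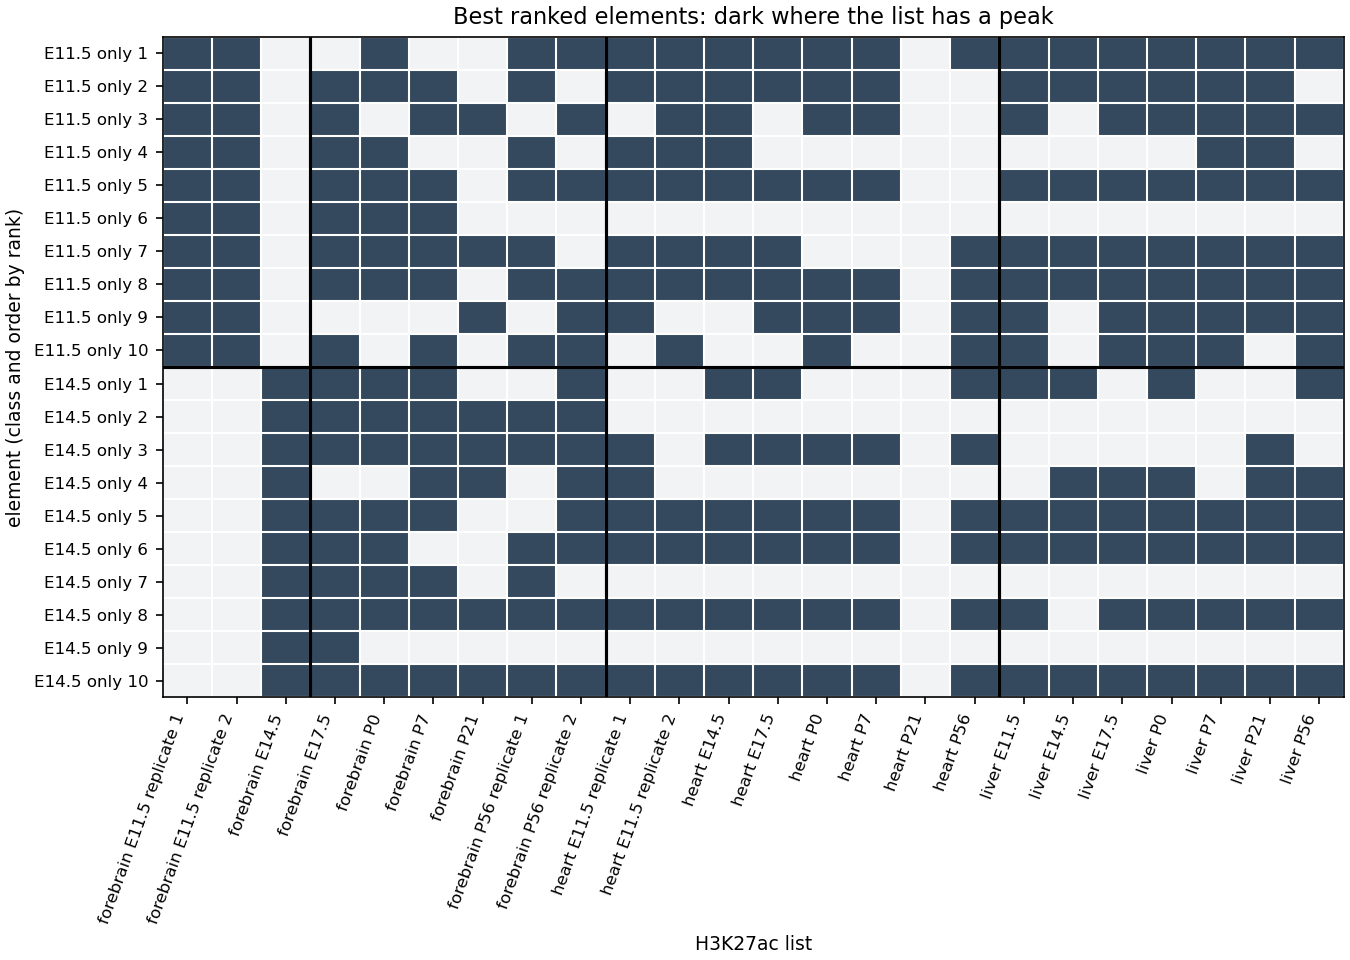
The 10 best ranked E11.5 only and 10 best ranked E14.5 only elements (rows, in order of rank) in the 24 H3K27ac lists (columns); dark cells mark a peak. The first 3 columns define the classes, and the other 21 show that all 20 elements have a peak in at least 1 later forebrain list and that 3 E14.5 only elements and 1 E11.5 only element have none in heart or liver.

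Shared elements held most of the best ranked peaks of the 3 lists, and the 5 best of them were widespread. The 5 best by mean rank were chr2:164735375-164738500, chr7:80757358-80766030, chr7:16983697-16990003, chr19:5798517-5814309 and chr10:36854227-36862338. The first had ranks of 3, 3 and 5 in replicate 1, replicate 2 and E14.5. Each of the 5 had a peak in all 6 later forebrain lists and in 14 of 15 heart and liver lists, with heart P21 the exception. The widest shared elements were a different kind, since 2 of the 3 widest had no heart or liver peak at all. The widest, chr7:86640168-86696831 (56664 bp), consisted of 1 peak at E14.5, 2 in E11.5 replicate 1 and 4 in replicate 2. The other, chr3:87998018-88048388 (50371 bp), consisted of 1 peak at E14.5 and 2 in each replicate.

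One peak at the head of the lists went against this pattern. The first ranked peak of both E11.5 replicate 1 and E14.5, chr2:77781657-77785366 in replicate 1, had no counterpart in E11.5 replicate 2. Among the best 100 peaks of each of the 3 lists, it was the only element that lacked a peak in another of the 3. Its replicate 1 peak lies 0.327 kb, and its E14.5 peak 0.189 kb, from the nearest peak of the matched input libraries. The element was missing from 6 of the other 21 lists. It fell in none of the 3 classes.

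Shared elements were wider at E14.5 than at E11.5. At E14.5 the peaks covered more bases of the element than in either E11.5 replicate in 8652 of 10431 elements (82.9%), and fewer than in both in 458 (4.39%). Median covered bases were 2430 in replicate 1, 2129 in replicate 2 and 2888 at E14.5. The median ratio of covered bases was 1.17 for E14.5 over replicate 1 and 1.31 for E14.5 over replicate 2, beside 1.11 for replicate 1 over replicate 2. The ratio of E14.5 to replicate 1 was thus close to the ratio between the replicates. In 109 elements 1 E14.5 peak spanned 2 or more peaks of both E11.5 lists, and the reverse occurred in 7. Width went with list length in the same order, and its part in this difference was not tested.

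The classes rested on clear overlaps. No shared element had an overlap below 100 bp between stages, and 10429 of 10431 had at least 1000 bp. Just outside the overlap limit, 35 of the 338 E11.5 only elements and 60 of the 12419 E14.5 only elements lay within 1 kb of a peak of the other stage. E11.5 only elements lay close to shared ones, with a median distance of 22.2 kb to the nearest, against 62.1 kb for E14.5 only elements and 40.4 kb between shared elements. At equal list lengths the 3 distances were 52.8, 58.4 and 50.2 kb, so the nearness of E11.5 only elements was not seen there.

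Along the genome, the E14.5 only class was spread over all autosomes. There the E14.5 only share of elements ran from 39.1% on chromosome 11 to 46.8% on chromosome 5. The 1 Mb window with the most was chr5:112000001-113000000, with 34 E14.5 only elements of 66. The window chr12:107000001-108000000 held 32 of 49, and chr1:195000001-196000000 held 28 of 34 with 3 shared ones. At equal lengths the chromosome 12 window was again among those with the most, with 8 E14.5 only elements of 22. No window held more than 4 E11.5 only elements, the most being in chr2:170000001-171000000, among 29.

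Chromosome X held few E11.5 only elements: 1 of 516, or 0.194% (95% exact interval 0.00491 to 1.07), against 1.17% of all elements. The E11.5 replicates differed in their X peaks, with 303 (1.91%) in replicate 1 and 141 (1.19%) in replicate 2, beside 498 (1.82%) at E14.5. Of the elements in replicate 1 and E14.5 but not replicate 2, 153 of 3839 (3.99%) were on X, more than in any of the 3 classes compared. These elements count in neither stage's class, because the E11.5 only class needs a peak in both replicates and the E14.5 only class needs one in neither.

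In later forebrain lists, which the classes did not use, E14.5 only elements were marked more often than E11.5 only elements. At E17.5 a peak was present in 5579 of 12419 E14.5 only elements (44.9%, 95% exact interval 44.0 to 45.8), 71 of 338 E11.5 only elements (21.01%, 16.8 to 25.7) and 9242 of 10431 shared elements (88.6%, 88.0 to 89.2). Elements of a single E11.5 replicate and no E14.5 peak were marked at E17.5 in 12.1% (replicate 1) and 13.1% (replicate 2). All such intervals cover counting error only, since neighbouring elements and 1 list per stage share their source. At P0 the shares were 62.7% of E14.5 only and 37.0% of E11.5 only elements, and at P7 62.2% and 44.1%. At P21 they were 20.6% and 13.9%. In P56 replicate 1 they were 49.5% and 44.7%, and in P56 replicate 2 36.8% and 36.1%. The share of E11.5 only minus that of E14.5 only elements was -23.9 points at E17.5, -25.7 at P0 and -18.1 at P7, and -4.86 and -0.704 in the P56 lists. The intervals of the 2 classes overlapped in both P56 lists and in no other of the 6.

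The difference in forebrain varied with the list length used. At 11871 peaks a list it was larger than in the full lists. E14.5 only elements were then marked in 92.0% at E17.5, 93.7% at P0 and 90.6% at P7, close to the 98.1%, 98.3% and 97.9% of shared elements, while E11.5 only elements were marked in 45.1%, 63.4% and 68.8%. In the P56 lists 79.3% and 68.5% of E14.5 only elements were marked, beside 60.3% and 47.9% of E11.5 only elements. With the best 5000 peaks of each list the difference was smaller than in the full lists at E17.5, P0 and P7, at -7.42, -7.24 and -5.45 points. It was larger at P21 and in the P56 replicates, at -23.9, -9.29 and -13.4 points. Elements among the best 11871 peaks at E14.5 and not among those at E11.5 were thus marked at E17.5 nearly as often as shared elements. Equal length is not equal depth, however. The cut at 11871 peaks kept the whole of the shorter E11.5 list but only the best ranked part of the 27288 E14.5 peaks. E11.5 only elements could therefore include the lowest ranked peaks of that list. With the best 5000 peaks, 90.7% of E11.5 only and 98.1% of E14.5 only elements were marked at E17.5. How far depth sets the difference was not tested. The unmatched elements came from the cut at 11871 peaks, so the same limit holds for them. Their shares at E17.5 were 91.6% of 1344 E14.5 only (90.0 to 93.0) and 30.1% of 193 E11.5 only elements (23.7 to 37.1).

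Over whole classes the order in forebrain changed when peaks were trimmed. When every peak was trimmed to 1 kb around its centre, all 6 later forebrain lists marked E11.5 only elements more often, with 63.8% against 45.1% at E17.5. Of the 991 trimmed E11.5 only elements, 666 (67.2%) lay on a full width E14.5 peak whose centre was elsewhere, against 612 of 13377 (4.58%) trimmed E14.5 only elements on a full width E11.5 peak. The 666 were marked at E17.5 in 85.6%. The other 325 were marked there in 19.1%, against 44.0% of the 12765 trimmed E14.5 only elements not on a full width E11.5 peak. In each later forebrain list the 325 had the lower share of these 2 groups, by little in P56 replicate 2 (35.4% against 35.8%).

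A history that ended at E11.5 was the exception even among E11.5 only elements. In the full lists 115 of 338 (34.0%, 29.0 to 39.3) had no peak in any later forebrain list, against 2728 of 12419 E14.5 only elements (22.0%) and 333 of 10431 shared elements (3.19%). At equal lengths the counts were 240 of 1447 (16.6%) and 29 of 1907 (1.52%), beside 27 of 8205 shared elements (0.329%). Absence followed by a later peak was found as well: 65 E11.5 only elements (19.2%) had a peak in both P56 lists but none at E17.5, against 11.4% of E14.5 only elements. At equal lengths this pattern was found in 212 of 1447 (14.7%) and 44 of 1907 (2.31%). At the other end, 16 E11.5 only elements (4.73%), 1748 E14.5 only elements (14.1%) and 7174 shared elements (68.8%) had a peak in all 6 later lists.

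A smaller group of E14.5 only elements had a peak at each later forebrain stage up to P7 and none called after it. With a peak at E17.5, P0 and P7 and none at P21 or P56, this group held 973 E14.5 only elements (7.83%), 9 E11.5 only elements (2.66%) and 311 shared elements (2.98%). At equal lengths it held 193 of 1907 (10.1%), 50 of 1447 (3.46%) and 215 of 8205 (2.62%). The P21 forebrain list marked a lower share of each of the 3 classes than any other later forebrain list, so absence at P21 alone was not used.

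In heart and liver the order of the full list classes was the opposite of that in forebrain. Of E11.5 only elements, 50% and 45.0% had a peak in the 2 heart E11.5 replicates, against 27.7% and 23.6% of E14.5 only elements. In liver at E11.5 the shares were 33.7% and 14.6%. Across the other 12 heart and liver lists, E11.5 only shares ran from 7.69% at heart P21 to 48.2% at heart P0, and those of E14.5 only elements from 6.20% at heart P21 to 33.3% at heart P0. Each of the 15 lists marked a higher share of E11.5 only elements, and 11 of the 15 did so for the unmatched elements. For the unmatched elements the differences were small, from -5.08 to 10.6 points. The intervals of the 2 unmatched groups were apart only in heart E11.5 replicate 2 and liver E11.5. Shared elements were marked in 55.2% to 83.5% of cases in every list but heart P21, where they reached 6.81%.

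Elements with no peak in any heart or liver list made up 48.4% of the E14.5 only class (6012), 29.3% of the E11.5 only class (99) and 9.98% of shared elements (1041). At equal lengths these shares were 32.1%, 20.8% and 6.29%. E14.5 only elements that were also marked in a later forebrain list and in no heart or liver list numbered 4196 (33.8%), beside 55 E11.5 only elements (16.3%). Elements seen in none of the other 21 lists made up 13.0% of E11.5 only (44) and 14.6% of E14.5 only elements (1816) in the full lists. At equal lengths they made up 6.29% (91) and 0.944% (18).

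**Figure D4:**
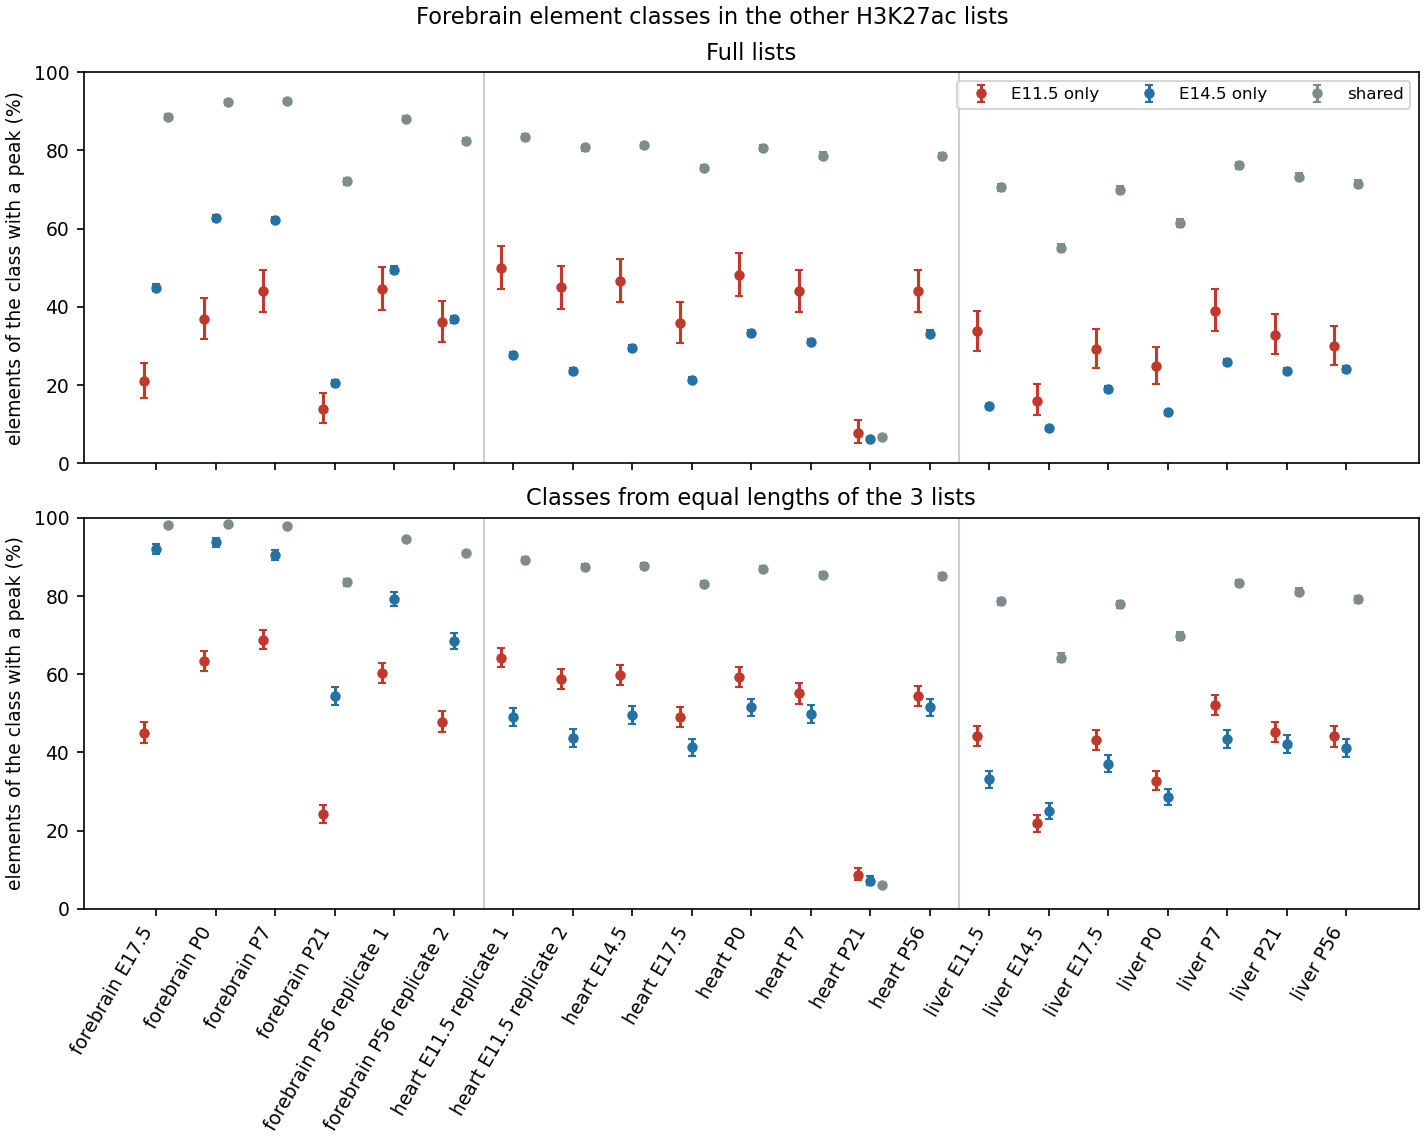
Percentage of E11.5 only, E14.5 only and shared elements (y axis) with a peak in each of the 21 other H3K27ac lists (x axis), for classes from the full lists (top) and from equal lengths of the 3 forebrain lists (bottom). Bars are exact 95% intervals for counting error only; E14.5 only lies above E11.5 only in the 6 forebrain lists and below it in the 15 heart and liver lists of the upper panel, and at liver E14.5 the order is turned in the lower panel (21.8% against 25.01%).

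The excess of E11.5 only over E14.5 only elements was larger in E11.5 lists of the other organs than in their later lists. It was 22.3 and 21.3 points in the heart E11.5 replicates, 17.3 at heart E14.5, 14.4 at heart E17.5, 14.9 at heart P0, 13.1 at heart P7, 1.49 at heart P21 and 10.9 at heart P56. In liver it was 19.1 points at E11.5, 6.95 at E14.5, 10.3 at E17.5, 11.8 at P0, 13.1 at P7, 9.14 at P21 and 5.76 at P56. In the full lists the 3 E11.5 lists lay above all 12 later lists, the nearest being heart E14.5. The difference between E11.5 and later lists, averaged over the 2 tissues, was 9.70 points (exact two-sided permutation test of stage labels within tissue over 15 lists, p = 0.0051, the smallest that its 196 relabellings can give). The test counts the 2 heart E11.5 replicates as separate lists, though their differences may be technical. With 1 of them left out, the difference was 9.45 or 9.94 points (exact permutation p = 0.0408 in each case, over 49 relabellings). Without heart P21 the difference was 8.64 points (exact permutation p = 0.0068). With only the forebrain lists cut, to 11871 peaks, the difference was 8.31 points (exact permutation p = 0.0102). With the heart and liver lists also cut, to 7376 peaks each, it was 5.65 points (exact permutation p = 0.0051). The groups then overlapped, the lowest E11.5 list being at 2.39 points and the highest later list at 8.28. They also overlapped with trimmed peaks, at 23.8 and 27.7 points (difference 8.47, exact permutation p = 0.0306), and on the scale of log2 ratios, at 0.85 and 0.93 (exact permutation p = 0.0051).

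Library name series went partly with stage in this test, since both heart E11.5 lists and heart P56 were of the series of the 3 forebrain lists and the other 12 lists were of the other series. Within the first series, the 2 heart E11.5 lists exceeded heart P56 by 10.9 points (exact permutation p = 0.33, the smallest that 3 lists allow). Within the second, liver E11.5 exceeded the later liver lists by 9.57 points (exact permutation p = 0.143, the smallest that 7 lists allow). These 2 values come from heart alone and from liver alone, against different sets of later stages, so they do not separate library name series from stage. Neither could pass a threshold of 0.05. For the unmatched elements the difference was 8.45 points (exact permutation p = 0.0051).

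**Figure D5:**
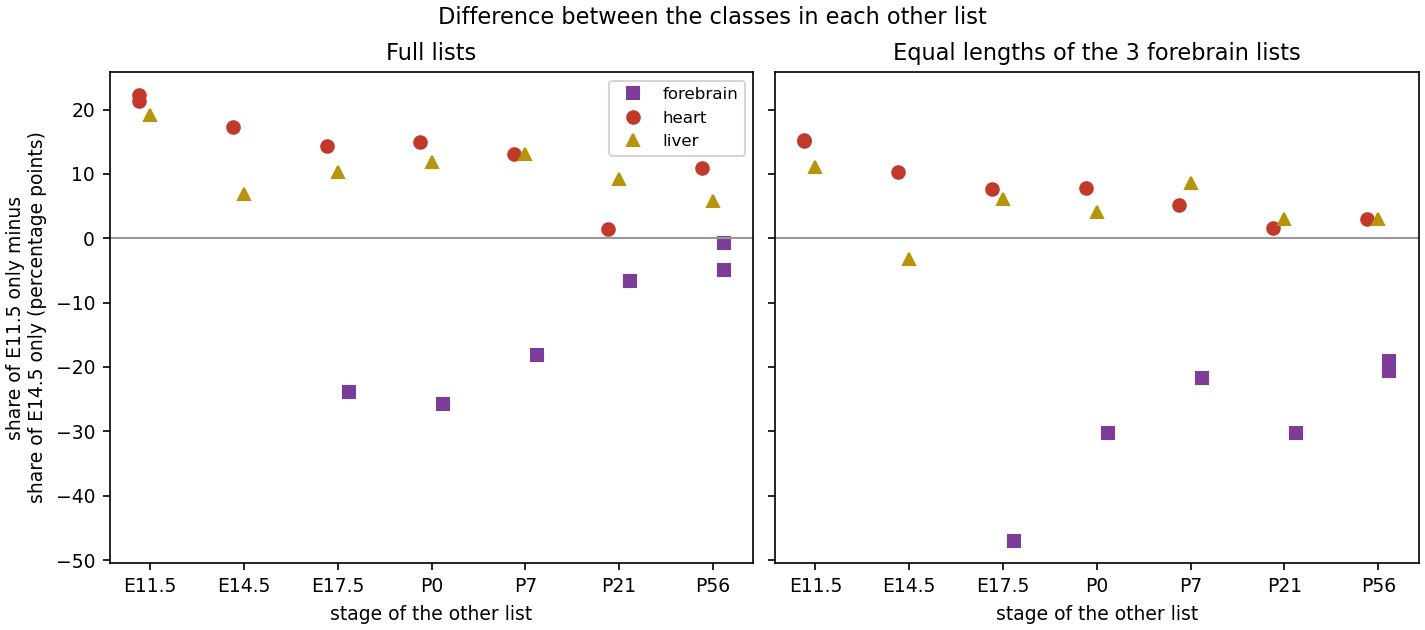
Share of E11.5 only minus share of E14.5 only elements with a peak, in percentage points (y axis), in each other list by stage (x axis), for classes from the full lists (left) and from equal lengths of the 3 forebrain lists (right). Each point is 1 list; the E11.5 points of heart and liver lie between 19.1 and 22.3 points on the left, above all later ones, and all forebrain points lie below 0.

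Some elements were marked in heart at E11.5 and in no later forebrain list. A peak in both heart E11.5 replicates and in no later forebrain list was found for 38 E11.5 only elements (11.2%, 8.08 to 15.1), 218 E14.5 only elements (1.76%) and 107 shared elements (1.03%), whether or not later heart or liver lists marked them. At equal lengths the counts were 86 of 1447 (5.94%), 2 of 1907 (0.105%) and 10 of 8205 (0.122%). A peak in a heart or liver E11.5 list and in no later heart or liver list was found for 15 E11.5 only elements (4.44%), 272 E14.5 only elements (2.19%) and 192 shared elements (1.84%).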

How the data were processed

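H3K27ac and matched input were sequenced from 3 tissues of CD-1 mice. The authors deposited 1 peak list per library, each line with a position and the authors' rank but no score, and a summary table with read counts and peak counts per library. The submitters' processing notes name BWA, MACS 1.4 and mm9, without saying what each was used for; the aligner's and caller's settings are not given in the sources used. Per the file headers, track names hold the words withInput and pe05, and P0 and P21 are written P1 and P20.

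Groups came from the sample labels. Peaks overlapping by at least 1 bp were merged, and a list marked an element where it had a peak there. Shares carry exact Clopper-Pearson intervals at 95%, for counting error only. Nothing states that lists of 1 group came from separate pools, so replicate differences may be technical. Stage matching used an exact two-sided permutation test within tissue, checked on simulated data. The text names the 10 best ranked E11.5 only and E14.5 only elements as a set, the 5 best ranked shared ones, the 3 widest per class and 5 windows of 1 Mb for each stage, and describes some of each. Members, classes and settings were chosen with earlier results of these data known. Coordinates are 1-based mm9. No mm9 genome or annotation was used here, so start sites, gene lists, motifs and sequences are not reported. Alternatives were equal list lengths, the best 5000 peaks, trimmed or joined peaks, stricter overlap, removal of input peaks, autosomes and single lists left out. Scripts ran in Python 3.11.15 with pandas 2.3.3, scipy 1.17.1, numpy 2.4.6 and, for plots, matplotlib 3.10.9.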

Additional observations from a re-analysis of the deposited data

Results flagged for a closer look

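In the full lists, the 2 stage classes moved in opposite directions in forebrain and in the other organs. The share of E11.5 only minus that of E14.5 only elements averaged -13.3 points over the 6 later forebrain lists, where it was below 0 in all 6 and ran from -25.7 to -0.704. It averaged 12.8 points over the 15 heart and liver lists, where it was above 0 in all 15 and ran from 1.49 to 22.3. The difference between forebrain and the other organs was not tested. Elements among the best 11871 peaks of one stage with no peak in the full lists of the other kept the sign in all 6 forebrain lists, between -61.5 and -23.1 points. They kept it in 11 of the 15 heart and liver lists, where values ran from -5.08 to 10.6 points. With peaks trimmed to 1 kb all 6 forebrain values were above 0, between 9.04 and 23.5 points. Trimmed elements on no full width peak of the other stage kept the order of the full lists in forebrain. At E17.5 their shares were 19.1% of E11.5 only and 44.0% of E14.5 only elements.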

How the results depend on the processing

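Class counts followed list length and peak width. Beside 338 E11.5 only, 12419 E14.5 only and 10431 shared elements, equal list lengths gave 1447 and 1907 for the stage classes, the best 5000 peaks 827, 1004 and 3130, trimming to 1 kb 991 E11.5 only elements, and elements unmatched in the full lists 193 and 1344. Leaving out 1 E11.5 replicate gave 647 to 1300 E11.5 only, 13002 to 16274 E14.5 only and 11008 to 14270 shared elements. Removing input peaks, joining peaks up to 1 kb apart, autosomes alone, a 50% overlap of the shorter peak and merging over all 24 lists kept each count within 1.5 times. The Jaccard index of the replicates, of replicate 1 with E14.5 and of replicate 2 with E14.5 was 0.655, 0.4995 and 0.395. It was 0.702, 0.660 and 0.596 at equal lengths and 0.661, 0.572 and 0.540 for the best 5000 peaks. Trimmed peaks gave 0.618, 0.446 and 0.352, and merging over 24 lists gave 0.667, 0.517 and 0.410.

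At forebrain E17.5 the shares of E11.5 only and E14.5 only elements, 21.01% and 44.9%, were 45.1% and 92.0% at equal lengths, 90.7% and 98.1% for the best 5000 peaks, and 30.1% and 91.6% for unmatched elements; trimming moved the first to 63.8%. Leaving out 1 E11.5 replicate gave 14.3% to 17.6% and 45.7% to 50.5%. The difference between the classes changed sign with trimming in every later forebrain list, to 18.7 points at E17.5, 9.04 at P0, 11.2 at P7, 23.3 at P21, and 18.7 and 23.5 in the P56 replicates. It did not change sign there for trimmed elements on no full width peak of the other stage. It changed sign at heart P21 (-0.0584 for the best 5000 peaks, -0.350 merged over 24 lists), at liver E14.5 (-3.17 at equal lengths), and for unmatched elements at heart P56 (-0.990), liver E14.5 (-5.08), liver P21 (-0.646) and liver P56 (-3.68). Without 1 E11.5 replicate it ran from -0.638 to 4.39 at liver E14.5 and from -0.134 to 3.09 at liver P56. The cause of these changes was not tested.

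Stage matching kept its direction in the 12 alternatives run. In points it was lowest, at 5.65, with forebrain lists of 11871 peaks and heart and liver lists of 7376 (exact permutation p = 0.0051). With trimmed peaks it was 8.47 points (exact permutation p = 0.0306). With both organs pooled, E11.5 lists overlapped later ones in both settings and on log2 ratios. Within each organ they lay above the later ones with trimmed peaks and on log2 ratios. Stage matching lost its call within library name series, where no lower p was possible. There it was 10.9 points (exact permutation p = 0.33) and 9.57 points (exact permutation p = 0.143). Leaving out 1 forebrain or heart E11.5 list gave 6.58 to 9.94 points, with an exact permutation p of up to 0.0408. The unmatched setting, the 50% overlap and merging over 24 lists were chosen after the data were seen, as were trimming and equal lengths of the forebrain lists alone for stage matching. No paired analysis was possible because forebrain E14.5 is 1 list with no replicate number. The planned 50% overlap between a peak and its element was not run, since every peak lies whole within its element; start site, gene list and motif results need an mm9 annotation or genome, which was not used here. Presence in a list is all that can be compared, and a missing low ranked peak cannot be told apart from one below the calling limit.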
